A study of Homo sapiens with 8 samples.

Results

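*DPEP1*, *CYP2S1*, *FA2H*, *PROSER2* and *NIPAL1* are 5 of the 25702 genes counted in SUIT2, a human pancreatic ductal adenocarcinoma (PDA) cell line labelled as epithelial. They were chosen because they are marked as downregulated on the volcano plot of the study that made these data, with *ITGA6* left aside, so they were chosen by the measured difference between knockdown and control libraries. Their levels in that comparison are therefore given as a description, without a test. RNA was sequenced in 8 libraries, 4 labelled with a scramble shRNA (shScr replicates 1 to 4), 2 labelled with a first shRNA against *EN1* (shEN1 #1 replicates 1 and 2) and 2 labelled with a second one (shEN1 #2 replicates 1 and 2). All 8 come from the same line, no other treatment, allele or time is labelled, and nothing states whether replicates were separate cultures, so the spread between them may be technical. Library totals lay between 33423590 and 37810604 counts, and levels are given as CPM, the counts of a gene scaled to a common library size with edgeR's TMM factors.

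The 5 genes belong to unrelated pathways. *DPEP1* encodes a membrane dipeptidase that splits cysteinylglycine, a product of glutathione breakdown, and converts one cysteinyl leukotriene into another. *FA2H* encodes a fatty acid hydroxylase whose products are built into hydroxylated ceramides and galactolipids. *CYP2S1* encodes a cytochrome P450 of epithelia that is known to be induced through the aryl hydrocarbon receptor, *NIPAL1* encodes a magnesium transporter, and *PROSER2* encodes a proline- and serine-rich protein whose role is little described. *EN1*, the target of the shRNAs, encodes a homeodomain transcription factor that acts in development, and the comparison asks which genes depend on it in PDA cells.

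The targeted gene did not follow the labels. *EN1* (chromosome 2, 119599747 to 119605224, minus strand, GRCh37) measured 4.10, 4.50, 4.94 and 2.51 CPM under the shScr label, in the order of replicates 1 to 4. It stood at 5.77 and 5.41 CPM in those labelled shEN1 #1 and at 1.35 and 6.70 CPM in those labelled shEN1 #2. Of the libraries labelled shEN1, only shEN1 #2 replicate 1 lay below every library labelled shScr, and the other 3 lay above all of them. The fitted log2 fold change of *EN1*, shEN1 minus shScr, was 0.26 ± 0.43 (SE, adjusted p = 1.00, edgeR's quasi-likelihood test). Every statement on shScr and shEN1 here rests on the labels.

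Markers of epithelial cells were expressed in all libraries. The 6 genes *KRT7*, *KRT8*, *KRT18*, *KRT19*, *EPCAM* and *CDH1* together summed to between 11442 and 18546 CPM. The fibroblast genes *DCN*, *LUM* and *COL1A2*, the leukocyte genes *PTPRC* and *CD3E* and the endothelial gene *CDH5* had no read in any library, where 3 counts correspond to between 0.0793 and 0.0898 CPM, a limit for counting error only. The fibroblast gene *COL1A1* was read in every library, at 1.02 to 3.99 CPM. *PDGFRB*, *CD14*, *PECAM1* and *VWF* had reads in some libraries only, reaching 0.24, 0.91, 0.60 and 0.41 CPM. *CD68*, a lysosomal protein gene used as a macrophage marker, was present at 7.75 to 34.6 CPM and was lowest in shEN1 #2 replicate 1 and shScr replicate 4.

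All 5 genes were low in one set of 4 libraries and high in the other 4, and each set held libraries of both labels. The low libraries were those labelled shScr replicates 3 and 4, shEN1 #1 replicate 1 and shEN1 #2 replicate 1. The high libraries were shScr replicates 1 and 2, shEN1 #1 replicate 2 and shEN1 #2 replicate 2. These sets held for 5 of 5 genes under TMM factors, under library size alone and under DESeq2's size factors, and over all 14333 genes tested 5.25% (753 genes) had the same 4 lowest libraries. The sets were noticed in these values and are not the groups that the labels give. Whether the labels are right was not tested.

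*FA2H* had the widest range. It stood at 78.0, 48.5, 14.95 and 20.1 CPM in shScr replicates 1 to 4, at 16.2 and 91.0 CPM in shEN1 #1 replicates 1 and 2 and at 21.2 and 54.2 CPM in shEN1 #2 replicates 1 and 2. The highest library was 6.09 times the lowest, and within the label shScr the highest was 5.22 times the lowest. Its levels also lined up across the labels, with shScr replicate 1 near shEN1 #1 replicate 2 and shScr replicate 2 near shEN1 #2 replicate 2. *FA2H* lies on chromosome 16 from 74746853 to 74808729 on the minus strand (GRCh37), and between 521 and 3092 reads were counted for it in a library.

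*DPEP1* ranged almost as widely. It stood at 105.2, 101.8, 44.2 and 31.8 CPM in shScr replicates 1 to 4. It stood at 23.2 and 99.4 CPM in shEN1 #1 and at 26.9 and 119.6 CPM in shEN1 #2. The lowest high library was 2.25 times the highest low library, the same kind of gap that *FA2H* showed with 2.29 times. *DPEP1* lies on chromosome 16 from 89679716 to 89704864 on the plus strand (GRCh37) and had between 829 and 3893 counts.

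The promoters of these 2 genes are shown because these genes had the widest ranges between libraries. They are RefSeq windows of 300 bases on GRCh38.p14, from 250 bases before to 50 bases after the gene start. The window of *FA2H* is chr16:74774771-74775070 (minus strand) and the first of 4 windows of *DPEP1* is chr16:89616635-89616934 (plus strand). Capitals in *FA2H* mark the octamer ATGCAAAT and the GC box GGGCGG or its complement, and capitals in *DPEP1* mark AGGAAG.
FA2H: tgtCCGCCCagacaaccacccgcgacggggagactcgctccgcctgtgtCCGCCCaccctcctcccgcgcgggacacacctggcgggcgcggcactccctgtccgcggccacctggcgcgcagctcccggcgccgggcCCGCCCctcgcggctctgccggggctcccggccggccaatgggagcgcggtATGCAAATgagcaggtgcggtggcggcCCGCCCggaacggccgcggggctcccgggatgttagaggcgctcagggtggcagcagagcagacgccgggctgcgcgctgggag
DPEP1: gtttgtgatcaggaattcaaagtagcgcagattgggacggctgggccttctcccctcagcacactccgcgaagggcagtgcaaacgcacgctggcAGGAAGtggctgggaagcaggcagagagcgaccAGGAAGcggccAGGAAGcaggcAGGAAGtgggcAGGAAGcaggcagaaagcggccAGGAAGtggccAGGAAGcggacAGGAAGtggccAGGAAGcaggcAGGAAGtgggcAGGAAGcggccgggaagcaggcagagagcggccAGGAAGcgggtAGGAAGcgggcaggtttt
The *FA2H* window is 77.0% G and C, holds 4 GC boxes and 1 octamer. Over 35116 RefSeq promoter windows the median is 58.7% G and C, 45.0% hold GGGCGG and 1.77% hold the octamer on either strand. The *DPEP1* window is 63.0% G and C, holds no GC box and repeats AGGAAG 13 times. That number is reached by 0.00285% of windows, this one included, while 33.6% hold AGGAAG at least once. The other windows of *DPEP1* hold no AGGAAG, and which start is used in these cells was not tested. The octamer, GGGCGG and AGGAAG were chosen after the letters were seen.

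*CYP2S1* had the highest level of the 5 genes per length of exon and a narrower range. It stood at 163.4, 164.1, 89.6 and 93.3 CPM in shScr replicates 1 to 4, at 81.4 and 170.5 CPM in shEN1 #1 and at 85.3 and 185.9 CPM in shEN1 #2. The highest library was 2.28 times the lowest. The high libraries began at 163.4 CPM and the low ones ended at 93.3 CPM, so the sets were separated by 1.75 times. Its mean over the libraries was 47.6 CPM per kb of exon, against 25.2 for *DPEP1*, 17.5 for *PROSER2*, 13.1 for *FA2H* and 2.11 for *NIPAL1*. *CYP2S1* lies on chromosome 19 from 41699115 to 41713444 on the plus strand (GRCh37).

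*PROSER2* showed almost the same profile as *CYP2S1* at a lower level. It stood at 87.3, 77.8, 42.5 and 45.0 CPM in shScr replicates 1 to 4, at 48.5 and 86.3 CPM in shEN1 #1 and at 46.1 and 80.3 CPM in shEN1 #2. The highest library was 2.05 times the lowest, the smallest range of the 5 genes. *PROSER2* lies on chromosome 10 from 11865338 to 11914276 on the plus strand (GRCh37), and its exons overlap those of *PROSER2-AS1* on the opposite strand, which had 5 to 33 counts against 1481 to 2934 for *PROSER2*. Whether reads were counted by strand is not given in the sources used here.

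The promoter windows of *CYP2S1* (chr19:41192969-41193268, plus strand, GRCh38.p14) and *PROSER2* (chr10:11823106-11823405, plus strand) are shown because these 2 genes were closest in pattern. Capitals mark GGGCGG or its complement.
CYP2S1: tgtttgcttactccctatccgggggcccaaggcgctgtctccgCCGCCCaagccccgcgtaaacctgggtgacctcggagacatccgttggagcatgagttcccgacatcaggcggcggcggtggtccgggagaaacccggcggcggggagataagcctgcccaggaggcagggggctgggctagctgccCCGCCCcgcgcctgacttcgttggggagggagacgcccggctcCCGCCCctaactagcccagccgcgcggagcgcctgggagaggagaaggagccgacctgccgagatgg
PROSER2: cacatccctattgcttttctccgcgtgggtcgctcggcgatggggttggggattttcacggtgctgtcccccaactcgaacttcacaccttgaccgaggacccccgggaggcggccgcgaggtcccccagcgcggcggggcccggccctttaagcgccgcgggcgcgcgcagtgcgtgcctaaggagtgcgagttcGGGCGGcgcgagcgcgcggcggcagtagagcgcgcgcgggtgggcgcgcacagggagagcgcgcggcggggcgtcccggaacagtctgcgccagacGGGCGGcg
Both windows are rich in G and C, at 70.0% and 73.3%, and hold 3 and 2 GC boxes. GCGTG, the core that the aryl hydrocarbon receptor binds, is absent from the *CYP2S1* window on both strands and present 2 times in that of *PROSER2*, and 36.5% of all windows hold it. The homeodomain cores TAATTA and TAATTG, found in 4.84% and 7.38% of all windows, have no match in any of the 7 windows of *FA2H*, *DPEP1*, *CYP2S1* and *PROSER2*. The AP-1 site TGACTCA, found in 4.95% of windows, has none either. These are matches of letters in a short window and say nothing of binding.

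*NIPAL1* was the least abundant of the 5. It stood at 15.2, 20.8, 7.605 and 6.65 CPM in shScr replicates 1 to 4, at 7.76 and 17.2 CPM in shEN1 #1 and at 7.77 and 18.04 CPM in shEN1 #2. The 4 low libraries lay within 6.65 to 7.77 CPM, and the high ones began at 15.2 CPM, 1.96 times higher. It was counted 249 to 773 times in a library. *NIPAL1* lies on chromosome 4 from 47916159 to 48042190 on the plus strand (GRCh37), and its exons overlap those of *NFXL1* on the opposite strand, which had 599 to 1065 counts, so reads of the overlap cannot be told apart without strand.

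**Figure D1:**
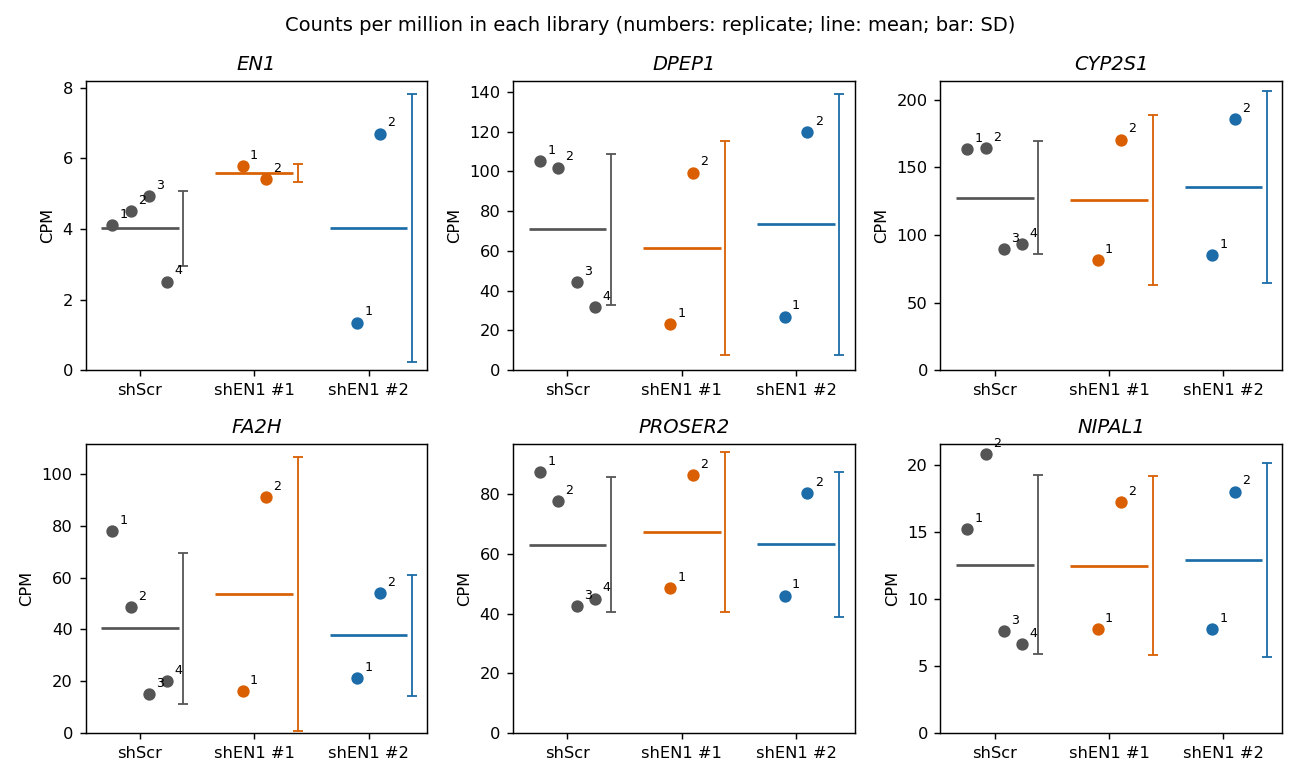
CPM of *EN1* and the 5 genes (y axis, from 0) in each library by label (x axis). Points are libraries numbered by replicate, lines are means and bars the SD (n = 4 for shScr, n = 2 for each construct). Under each label the 5 genes split into high and low libraries, for example 31.8 and 105.2 CPM for *DPEP1* within shScr, whereas *EN1* is low in shEN1 #2 replicate 1 at 1.35 CPM.

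The size of the split is given as a description, since the sets of libraries were defined from these genes. Over the 5 genes, a low and a high library differed by 1.26 to 1.66 (root mean square difference in log2 CPM, 16 pairs). The 6 pairs within the low libraries differed by 0.16 to 0.43 and the 6 pairs within the high libraries by 0.14 to 0.43. Over all genes tested, the low against high pairs differed by 0.55 to 0.84, which overlapped the 0.39 to 0.79 within the low libraries. Pairs within the high libraries differed by 0.49 to 0.56 over all genes, a range that met the low against high range only at its upper end. The 6 epithelial markers had the same 4 lowest libraries, 6 of 6, beside 5.25% of all genes, with gaps of very different size. The lowest high library was 1.49 times the highest low library for *KRT7* and 1.31 times for *EPCAM*, but 1.12 times for *KRT8*, 1.11 times for *KRT18* and 1.00 times for *KRT19*, at 1040 against 1037 CPM. *KRT7* stood at 191.8 to 567.5 CPM in the low libraries and 847.4 to 1080 CPM in the high ones, and *EPCAM* stood at 234.3 to 400.8 against 524.9 to 589.4 CPM. Unlike the 5 genes, *KRT7* was uneven within the low libraries. It stood at 198.3 and 191.8 CPM in shScr replicate 4 and shEN1 #2 replicate 1, but at 533.5 and 567.5 CPM in shScr replicate 3 and shEN1 #1 replicate 1. *KRT19* lay above its own mean in shScr replicate 3, by 0.27 in log2 CPM. The part of these markers in the pattern of the 5 genes was not tested, and fewer cells that express a gene and less RNA per cell cannot be told apart in bulk samples.

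The 5 genes varied more than most. They were chosen for a difference measured between these same libraries, so a wide spread may come with the choice. The SD of log2 CPM over the 8 libraries was 1.05 for *FA2H*, 1.00 for *DPEP1*, 0.68 for *NIPAL1*, 0.52 for *CYP2S1* and 0.47 for *PROSER2*. The median of all genes tested was 0.26 and the 90th percentile 0.76. As many as 4.42% of genes varied at least as much as *FA2H*, 5.17% as much as *DPEP1* and 24.2% as much as *PROSER2*. The spread was already present among libraries of one label. Within shScr alone the SD was 1.104 for *FA2H*, 0.87 for *DPEP1*, 0.79 for *NIPAL1*, 0.53 for *PROSER2* and 0.49 for *CYP2S1*, against a median of 0.27 for all genes.

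**Figure D2:**
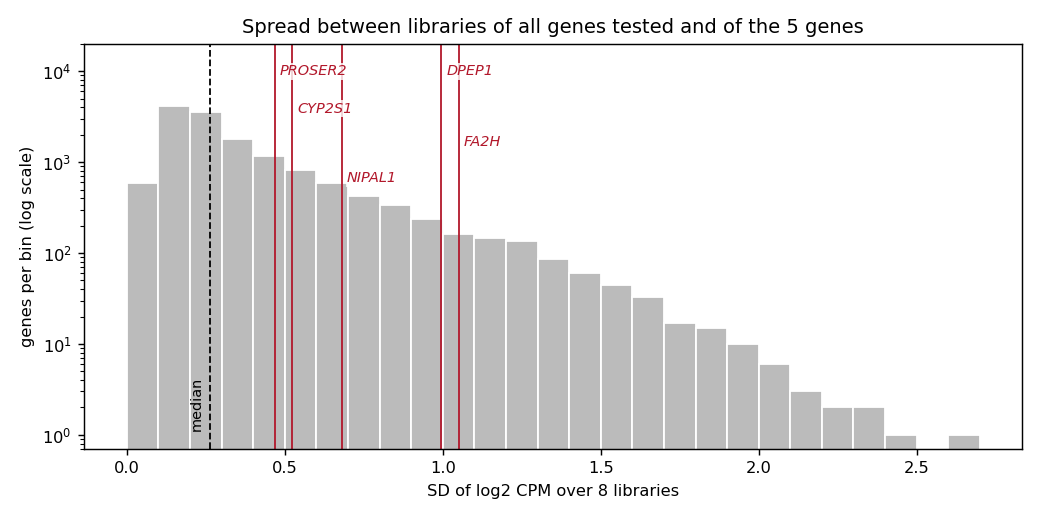
Histogram of the SD of log2 CPM over 8 libraries (x axis, log2 units) for the 14333 genes tested (y axis, genes per bin of 0.1, log scale), with the 5 genes as red lines and the median of 0.26 dashed. All 5 lie to the right of the median, and *DPEP1* (1.00) and *FA2H* (1.05) lie beyond the 90th percentile of 0.76.

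The first comparison pooled both shEN1 constructs against shScr, as in the study's plot from which the genes were chosen. Their mean levels were nearly the same under both labels. *DPEP1* averaged 67.3 ± 49.5 CPM in shEN1 and 70.8 ± 38.2 CPM in shScr (SD, n = 4 each). *FA2H* averaged 45.6 ± 34.6 against 40.4 ± 29.1 CPM and *NIPAL1* 12.7 ± 5.71 against 12.6 ± 6.71 CPM. *CYP2S1* averaged 130.8 ± 55.2 against 127.6 ± 41.8 CPM and *PROSER2* 65.3 ± 20.98 against 63.1 ± 22.8 CPM. The means differed by far less than 1 SD in each gene, and the ranges of the labels overlapped. The ratio of the means, shEN1 over shScr, lay between 0.951 for *DPEP1* and 1.13 for *FA2H*.

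On the log2 scale the fitted fold change, shEN1 minus shScr, was -0.07 for *DPEP1*, 0.04 for *CYP2S1*, 0.18 for *FA2H*, 0.05 for *PROSER2* and 0.01 for *NIPAL1*. The study marks these genes as downregulated, a direction that only *DPEP1* showed in this fit, and by a small amount. The median over all 14333 genes tested was -0.0028. By edgeR's quasi-likelihood test 0 genes (0%) were called at an adjusted p below 0.05, with 44 at an unadjusted p below 0.05, and DESeq2 called 2 genes. The study, by contrast, reports differentially expressed genes in both directions in SUIT2. It used DESeq2, and its text gives a limit (p below 0.05) for its mouse organoids but none for SUIT2, so the limits may be unlike. Here DESeq2 put 39 genes at an unadjusted p below 0.05. The cause of the difference from the study was not tested. The genes are labelled on the plot without a stated limit, so no values just inside and just outside one can be given.

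The sign of these fold changes was decided by single libraries. *DPEP1* became positive when shScr replicate 1, shScr replicate 2, shEN1 #1 replicate 1 or shEN1 #2 replicate 1 was left out, at 0.18, 0.16, 0.21 and 0.18. *CYP2S1*, *PROSER2* and *NIPAL1* became negative without shScr replicate 3 (-0.10, -0.10 and -0.17) and without shScr replicate 4 (-0.09, -0.08 and -0.20). They did so too without shEN1 #1 replicate 2 (-0.12, -0.12 and -0.18) and without shEN1 #2 replicate 2 (-0.18, -0.07 and -0.20). *FA2H* became negative without shScr replicate 3 (-0.10), shScr replicate 4 (-0.05) or shEN1 #1 replicate 2 (-0.41). Leaving out a low shEN1 or a high shScr library raised the fold change of each of the 5 genes, and leaving out a high shEN1 or a low shScr library lowered it.

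**Figure D3:**
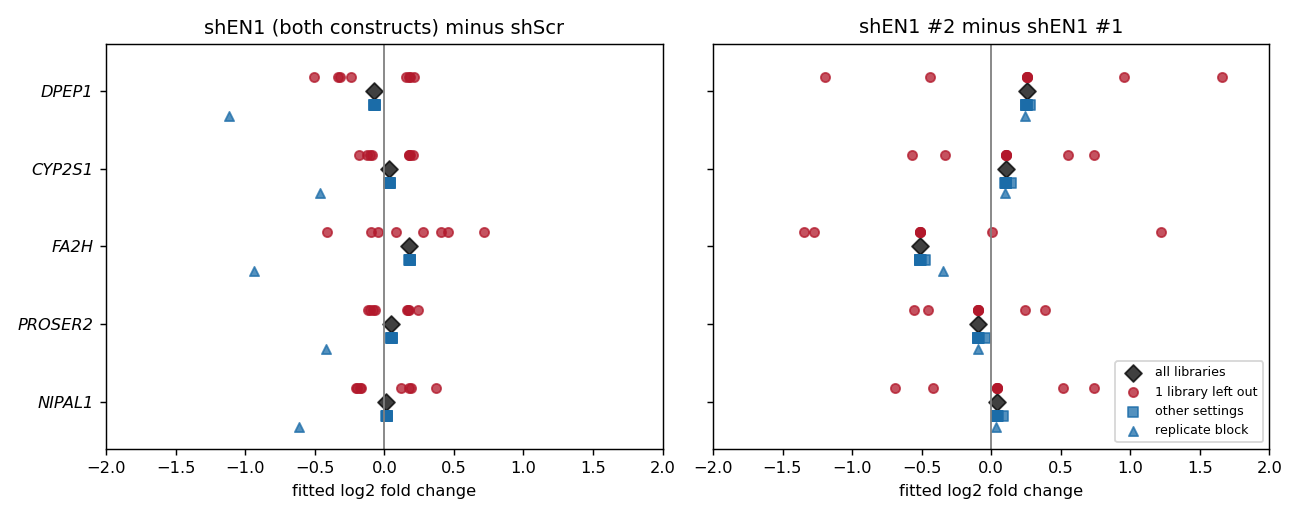
Fitted log2 fold change (x axis) of the 5 genes (y axis) for both constructs minus shScr (left) and shEN1 #2 minus shEN1 #1 (right), with all libraries (diamonds), with 1 library left out (circles), under other settings (squares) and with a block on the replicate number (triangles). With a library left out, values fall on both sides of 0 for each gene, from -0.51 to 0.21 for *DPEP1* on the left.

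The second comparison, shEN1 #2 against shEN1 #1, did not enter the choice of the genes. Neither construct held *DPEP1*, *FA2H* or the other 3 genes lower than the other beyond the spread of its 2 libraries. *DPEP1* averaged 73.3 ± 65.5 CPM in shEN1 #2 and 61.3 ± 53.8 CPM in shEN1 #1 (SD, n = 2 each), a fitted log2 difference of 0.26 (95% confidence interval -1.85 to 2.36). *FA2H* averaged 37.7 ± 23.3 against 53.6 ± 52.9 CPM, a difference of -0.51 (-2.77 to 1.75). *CYP2S1* differed by 0.11 (-1.03 to 1.24), *PROSER2* by -0.09 (-1.10 to 0.91) and *NIPAL1* by 0.04 (-1.42 to 1.51). The adjusted p was 1.00 for each of the 5 (edgeR's quasi-likelihood test, 15129 genes tested), and the intervals include changes of more than 1 on the log2 scale for 4 of the 5 genes in both directions.

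In this comparison edgeR called 0 of 15129 genes (0%), with 177 at an unadjusted p below 0.05, and DESeq2 called 1. Each construct held 1 high and 1 low library. Within shEN1 #1, replicate 2 was 5.61 times replicate 1 for *FA2H* and 4.28 times for *DPEP1*, and within shEN1 #2 the ratios were 2.56 and 4.44. With 1 shEN1 library left out, the difference for *DPEP1* ran from -1.19 (without shEN1 #2 replicate 2) to 1.66 (without shEN1 #1 replicate 2), and that for *FA2H* from -1.35 to 1.22 without the same 2 libraries.

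The genes closest in pattern to each of the 5 were found by the root mean square difference of log2 CPM over the 8 libraries, after each gene's own mean was taken away. For *CYP2S1* they were *BSPRY* (0.072), *SLC17A9* (0.11) and *PROSER2* (0.13), against a median of 0.55 over all genes. For *PROSER2* they were *CDCP1* (0.10), a transmembrane glycoprotein gene, *LRP8* (0.11), a lipoprotein receptor gene, and *SLC17A9* (0.12), a vesicular nucleotide transporter gene. *CDCP1* stood at 170.5 to 200.7 CPM in the 4 low libraries and at 272.2 to 324.6 CPM in the high ones, without overlap. For *NIPAL1* the closest was the integrin gene *ITGA6* (0.16), followed by *TMEM125* (0.18) and *WNT10A* (0.21), a WNT ligand gene. *ITGA6* is marked as downregulated on the same plot, so it was selected in the same way and is not an independent neighbour. It stood at 518.6 to 646.0 CPM in the low libraries and 1184 to 1262 CPM in the high ones, again with shScr and shEN1 on both sides.

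*DPEP1* and *FA2H*, with their wider range, had looser neighbours. For *DPEP1* the closest were *CYP4F3* (0.22), which encodes a leukotriene B4 hydroxylase, *MMRN2* (0.35) and *LINC00513* (0.38), with a median of 0.96 over all genes. *CYP4F3* stood at 0.64 to 1.32 CPM in the low libraries and 2.199 to 3.32 CPM in the high ones. For *FA2H* they were *MMRN2* (0.38), *AREG* (0.39), a ligand of the EGF receptor, and *UNC13D* (0.42), a gene of granule exocytosis, with a median of 1.01. *AREG* stood at 8.73 to 12.8 CPM against 18.3 to 31.2 CPM. Among themselves, *DPEP1* had rank 5 for *FA2H*, *NIPAL1* rank 6 for *DPEP1* and *CYP2S1* rank 6 for *NIPAL1* among all genes tested. Other pairs were far apart, since the measure counts the size of a gene's range as well as its order of libraries. *FA2H* had rank 7304 for *CYP2S1*, 9096 for *PROSER2* and 1111 for *NIPAL1*, and *DPEP1* had rank 3445 for *CYP2S1* and 8839 for *PROSER2*. The ranks describe these 8 libraries only, which share one line and one origin.

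**Figure D4:**
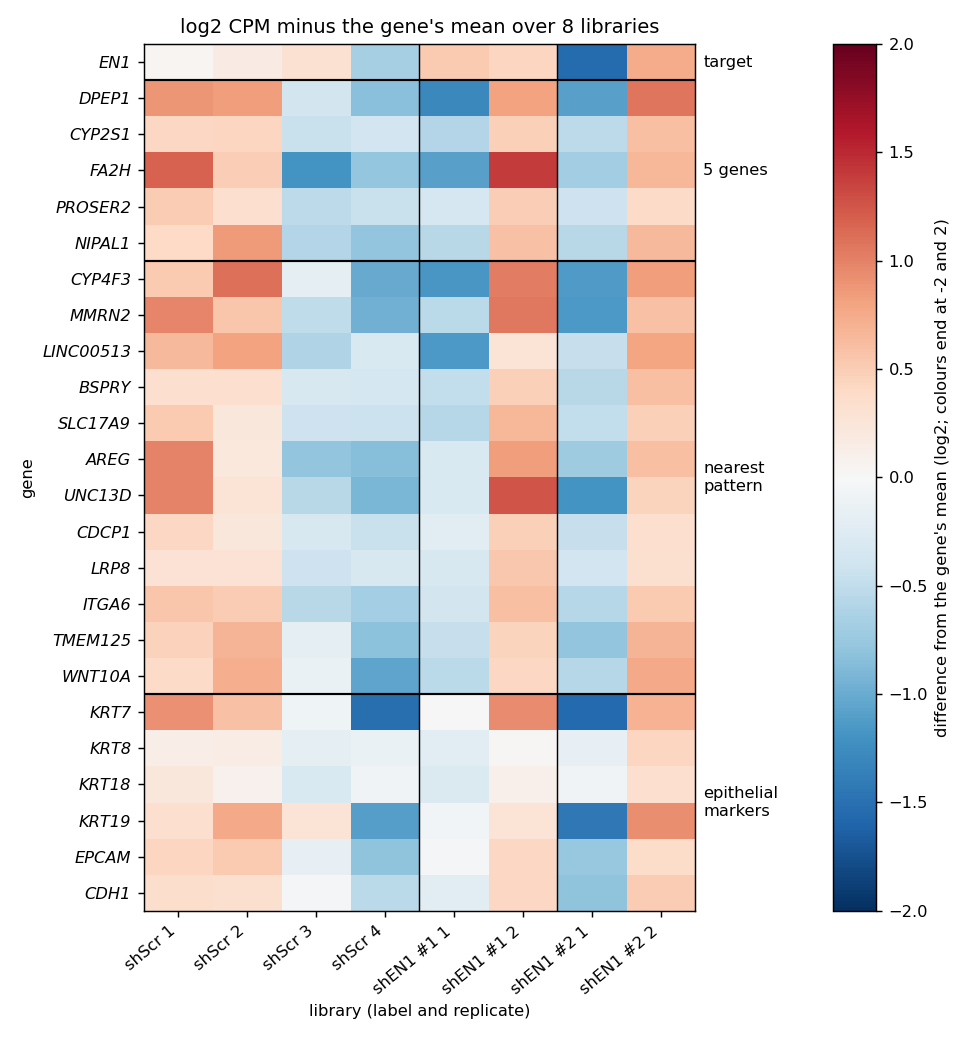
log2 CPM minus each gene's mean over 8 libraries (colour, log2 units, ending at -2 and 2) by library (x axis) for *EN1*, the 5 genes, the genes nearest to them in pattern and 6 epithelial markers (y axis). The 5 genes and their neighbours are below their mean in shScr replicates 3 and 4, shEN1 #1 replicate 1 and shEN1 #2 replicate 1, for example *DPEP1* by -0.37 and -0.84 in the shScr libraries. *EN1* is below its mean in shScr replicate 4 (-0.66) and shEN1 #2 replicate 1 (-1.53) and above it in the other 6.

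The pathways of the genes were followed through gene lists, 2 for *DPEP1* and 1 each for *FA2H*, *CYP2S1* and *NIPAL1*. *PROSER2* had no pathway list, only the other PROSER genes. No gene of these lists was called in either comparison, against a background of 0% in both. For *DPEP1*, 13 of 17 genes of the gamma-glutamyl cycle and glutathione metabolism passed the filter on low counts, with a median log2 fold change of 0.02 for shEN1 minus shScr. *GCLC*, *GGCT* and *GGT1* shared the 4 lowest libraries of *DPEP1*, 3 of 13, beside 5.25% of all genes tested. *GGT1*, whose enzyme makes the substrate of *DPEP1*'s enzyme from glutathione, stood at 47.0, 70.9, 39.9 and 5.39 CPM in shScr replicates 1 to 4, at 29.1 and 44.6 CPM in shEN1 #1 and at 4.45 and 70.3 CPM in shEN1 #2. It was lowest in shScr replicate 4 and shEN1 #2 replicate 1, and the other 2 low libraries lay below the 44.6 CPM at which the high ones began. *SLC7A11*, the cystine transporter gene, ranged from 9.05 CPM in shScr replicate 4 to 80.9 CPM in shEN1 #1 replicate 2.

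Of 11 leukotriene genes 8 passed the filter, and their median log2 fold change was 0.02. The 4 lowest libraries of *DPEP1* were shared by 0 of the 8, where 5.25% of all genes tested share them. *ALOX5*, the lipoxygenase gene that opens the pathway, ranged from 1.01 CPM in shScr replicate 4 to 17.5 CPM in shScr replicate 2. The leukotriene receptor gene *LTB4R2* stood at 0.48 to 1.52 CPM.

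For *FA2H*, 28 of 31 sphingolipid genes passed the filter and their median SD of log2 CPM was 0.23, below the median of 0.26 over all genes. Their median log2 fold change for shEN1 minus shScr was -0.02. The genes that shared the lowest libraries of *FA2H* were *UGT8* and *GAL3ST1*, 2 of 28 and so near the 5.25% of all genes, which encode the enzymes that add galactose to ceramide and sulfate to galactosylceramide. *GAL3ST1* stood at 9.19, 18.2, 6.89 and 0.48 CPM in shScr replicates 1 to 4, at 3.47 and 9.33 CPM in shEN1 #1 and at 0.23 and 15.7 CPM in shEN1 #2. Its range was the largest of the list by SD (2.24). *DEGS2*, a ceramide desaturase and hydroxylase gene, followed with 0 CPM in shEN1 #1 replicate 1 and 2.24 CPM in shEN1 #2 replicate 1.

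For *CYP2S1*, 22 of 27 genes of the CYP2 family, the aryl hydrocarbon receptor pathway and retinoid metabolism passed the filter, with a median log2 fold change of -0.01 and 0 of 22 with the lowest libraries of *CYP2S1*, a count that the 5.25% over all genes does not set apart. The 2 most variable, *CYP26A1* and *RARB*, were near the limit of detection, at 0.06 to 1.07 CPM and 0.18 to 1.21 CPM. For *NIPAL1*, 17 of 18 magnesium transport genes passed, with a median log2 fold change of -0.03, and 1 of 17, *NIPAL4*, shared its lowest libraries, again near 5.25%. Between the constructs the list medians lay between -0.03 and 0.06, except for the 2 other PROSER genes at 0.23, against 0.0031 over all genes.

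Of 17 relatives of the 5 genes by name 13 passed the filter, and 1 of these 13, *NIPAL4*, had the same 4 lowest libraries, a share near the 5.25% of all genes tested. *CYP2S1* was by far the most abundant CYP2 gene per length. *CYP2B6* followed at a mean of 3.95 CPM per kb of exon, although reads could be split with a near-identical pseudogene, and *CYP2J2*, *CYP2R1*, *CYP2U1*, *CYP2W1* and *CYP2E1* stood at 1.61, 1.41, 1.04, 0.11 and 0.08. Among the magnesium transporters, *NIPAL1* at 2.11 CPM per kb stood below *NIPA2* (31.6), *NIPA1* (7.80) and *NIPAL3* (3.45) and above *NIPAL4* (1.82) and *NIPAL2* (1.26). The ranges over libraries of *NIPAL1* and *NIPAL4* overlapped, as did those of *NIPAL1* with *NIPAL2* and *NIPAL3*.

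The transporter genes *NIPAL3* and *NIPA1* were steady where *NIPAL1* was not. *NIPAL3* stood at 28.5 to 36.6 CPM in all libraries and *NIPA1* at 58.0 to 82.0 CPM. *PROSER1* stood at 35.9 to 57.3 CPM and *PROSER3* at 6.72 to 12.8 CPM, a level per kb below that of *PROSER2* in every library. The dipeptidase relatives *DPEP2* and *DPEP3* were not detectable at this depth, with 0.03 CPM of *DPEP2* in shEN1 #1 replicate 2 and no read elsewhere. *CYP2C8* had no read in any library, and *CYP2D6* stood below 0.5 CPM in all of them.

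**Figure D5:**
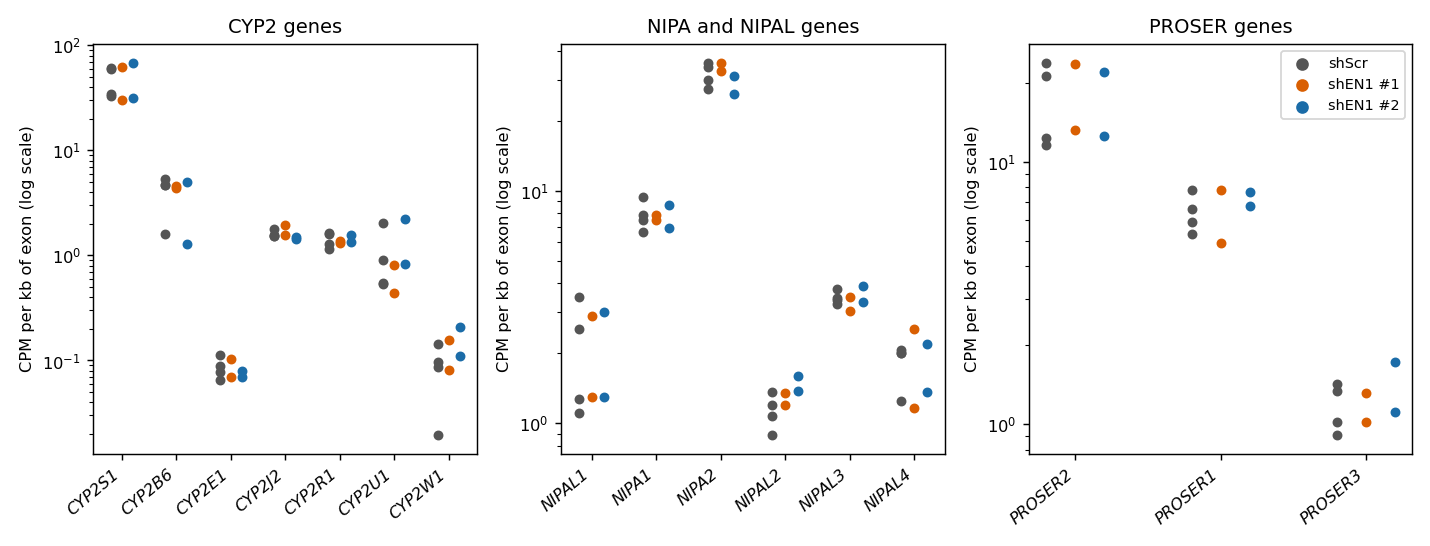
CPM per kb of exon (y axis, log scale) of the 3 genes that have relatives with enough reads, beside those relatives (x axis), 1 point per library, coloured by label. *CYP2S1*, *NIPAL1* and *PROSER2* split into a high and a low group of libraries under each label, for example over a range of 11.6 to 23.8 CPM per kb for *PROSER2*. *CYP2B6*, *NIPAL4* and *PROSER1* are also lower in the same libraries under each label. Between shScr replicates 3 and 1 the difference is small for *CYP2B6* (17.3 and 17.6 CPM) and *NIPAL4* (8.03 and 8.07 CPM). *NIPA2* is lower in those libraries under shScr and shEN1 #2 but not under shEN1 #1. *NIPAL3* and *CYP2R1* do not split this way.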

How the data were processed

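Groups follow the titles of the 8 SUIT2 libraries, in which shEN1 carries a construct number and then a replicate number. The deposited values are counts of reads per gene, whole numbers that the authors had not normalized. Per the study's methods, paired-end reads of human samples were aligned to hg19 with HISAT2 and counted with featureCounts, while the submitters' processing notes list mm9. The identifiers are human Entrez numbers, and the annotation and strand setting are not given in the sources used here. Symbols were found for 23696 of 25702 identifiers, and the other 2006 held 0.214 to 0.257% of counts. Libraries differed by more than sampling noise (chi-square per gene at least 10.6).

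Genes were filtered with filterByExpr (minimum count 10), normalized with TMM and tested in R 4.3.3 by the robust quasi-likelihood F test of edgeR 4.0.16 (Benjamini-Hochberg adjusted p below 0.05), first with both constructs pooled against shScr, then with 3 groups to compare the constructs. Log2 CPM used a prior count of 2. The tests were tried on simulated counts with known changes and the same spread set for every gene. These did not copy the split between the real libraries, so the trial does not measure power or error in these data. Alternatives were DESeq2 1.42.0, its size factors, library size only, all genes with a count, only genes with 10 counts or more in each library, a replicate block, only the shEN1 libraries for the constructs, a prior count of 0.5 and leaving out each library. Positions and exon lengths came from GENCODE v44 lifted to GRCh37, and promoters from RefSeq (GRCh38.p14), matched for 4 of the 5 genes (without *NIPAL1*).

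Named were *EN1*, the 5 genes, their 3 nearest genes in pattern, relatives by name, the 2 genes of largest SD in each pathway list and any list gene called. *GCLC*, *GGCT*, *UGT8* and the cell type markers are named in addition. The genes and lists were chosen with earlier results of these data known.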

Additional observations from a re-analysis of the deposited data

Results flagged for a closer look

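For *EN1*, the 5 genes and the other named genes that passed the filter, the 4 libraries labelled shScr and the 4 labelled shEN1 were searched for a library far from the other 3 (Dixon's ratio above its 95% critical value). Chance flags about 1 in 20 groups, 4.1 of the 82 searched, and 3 were found, all in relatives of the 5 genes. *CYP2B6*, a xenobiotic-metabolizing P450 gene, stood at 4.75 CPM in shEN1 #2 replicate 1 and at 16.5 to 18.5 CPM in the other libraries labelled shEN1. *CYP2J2*, an epoxygenase gene, stood at 5.30 CPM in shScr replicate 1 and at 4.54 to 4.65 CPM in the other libraries labelled shScr. *NIPAL4*, a magnesium transporter gene, stood at 4.99 CPM in shScr replicate 4 and at 8.03 to 8.28 CPM in the other 3.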

How the results depend on the processing

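The count of genes called for shEN1 against shScr was 0 with all libraries, 2 with DESeq2 (*VAMP7* and the gene with identifier 100507676), 1 with the replicate block (*VAMP7*) and 0 to 1 with a library left out (*VAMP7* without shScr replicate 4). Between the constructs it was 0, 1 with DESeq2 (*ATF6B*) and 0 with each library left out. The cause was not tested. After each group's mean was taken away, same-numbered libraries of shScr and shEN1 correlated at -0.33 to 0.44 and those of the constructs at 0.12. With 2 libraries per construct the values of the constructs are equal by construction, so this check cannot exclude a pairing. None was assumed in the main fits. With the replicate block, which compares shEN1 only with shScr replicates 1 and 2, the log2 fold changes were -1.11 for *DPEP1*, -0.46 for *CYP2S1*, -0.94 for *FA2H*, -0.42 for *PROSER2* and -0.62 for *NIPAL1*. With a library left out, the difference between the constructs lay between -1.19 and 1.66 for *DPEP1*, between -0.57 and 0.74 for *CYP2S1*, between -1.35 and 1.22 for *FA2H*, between -0.56 and 0.39 for *PROSER2* and between -0.69 and 0.74 for *NIPAL1*, where an arm of 1 library is assumed to vary like the others. Scaling, filter and prior count changed no sign and no call of the 5 genes. Every library left them at 249 counts or more, so counting depth limits these levels little, and 2 libraries per construct limit the comparison of constructs more.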

Other observations

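Some genes of the pathway lists set 2 libraries apart rather than 4. In shScr replicate 4 and shEN1 #2 replicate 1, *GAL3ST1* stood at 0.48 and 0.23 CPM against 3.47 to 18.2 CPM in the other 6, *GGT1* at 5.39 and 4.45 against 29.1 to 70.9 CPM, *ALOX5* at 1.01 and 1.60 against 8.29 to 17.5 CPM, and *CYP2B6* at 5.95 and 4.75 against 16.5 to 20.1 CPM. The targeted gene *EN1* was also lowest in these 2 libraries, at 2.51 and 1.35 CPM against 4.10 to 6.70 CPM in the other 6. So were *KRT7* (198.3 and 191.8 against 533.5 to 1080 CPM), *KRT19* (400.3 and 320.9 against 831.5 to 1648 CPM), *EPCAM* and *CDH1*, but not *KRT8* and *KRT18*. In the same 2 libraries *CYP2U1*, an orphan P450 gene, stood higher, at 12.1 and 13.3 against 2.58 to 5.34 CPM. The magnesium transport genes *CNNM2* (15.9 and 16.1 against 5.41 to 9.79 CPM) and *SLC41A3* (45.6 and 39.8 against 18.4 to 25.3 CPM) were higher there too. These 2 libraries were the closest of all pairs over the genes tested (0.39, root mean square difference in log2 CPM), and they carry different labels. The 5 genes were low in both, and also low in shScr replicate 3 and shEN1 #1 replicate 1, where *ALOX5* stood at 10.6 and 8.29 CPM and *CYP2B6* at 17.3 and 16.5 CPM. Over the genes tested, shScr replicate 3 and shEN1 #1 replicate 1 were likewise each other's closest library (0.51), and they too carry different labels. The libraries were singled out after their values were seen, and no test was made.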
